A study of Mus musculus with 24 samples.

Results

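The CCN genes Ccn1 to Ccn5 and the muscle ankyrin repeat gene Ankrd1 were followed across mouse lungs that had been injured with bleomycin, a DNA-damaging drug, or left uninjured, under oligonucleotides against the long noncoding RNA Dnm3os. Members were the array features annotated to these symbols or to the older names Cyr61, Ctgf, Nov, Wisp1 and Wisp2. They came to 7 features for 6 genes, of 20728 named genes on the array. Ccn4 had 2 features, of which the brighter was used, and each other member had 1. Whole lungs of C57BL/6 mice aged 9 to 12 weeks were measured on 24 one-colour arrays, 1 per sample. All mice had received a gapmer, an antisense oligonucleotide whose DNA core recruits RNase H to cut the matching RNA. The control gapmer (GP Ctrl), gapmer 1 (GP DNM3OS-1) and gapmer 3 (GP DNM3OS-3) were each combined with PBS (n = 3) or with bleomycin (n = 5). The lungs were neither sorted nor separated into cell types, and doses, route, time after bleomycin and sex were not stated in the sources used here. Samples are numbered within each group without naming animals, and the p-values therefore measure only sample-to-sample spread, which may be partly technical.

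CCN proteins are secreted, cysteine-rich proteins of the extracellular matrix that bind integrins and heparan sulfate proteoglycans and tune how cells respond to growth factors. Ccn1 and Ccn2 are textbook targets of the transcriptional coactivators YAP and TAZ, which enter the nucleus in stretched or poorly confined cells and act through TEAD factors. Ccn2 is also a classic target of TGF-beta and a mediator of fibrosis, and Ccn4 was found as a gene induced by Wnt1. Ccn5 lacks the C-terminal cystine knot of the other family members and has been described as opposing Ccn2 in fibrosis. Ankrd1 encodes a nuclear and sarcomeric cofactor that is abundant in heart muscle, and it too is a widely used readout of YAP and TAZ.

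In injured lungs under the control gapmer, Ccn4, Ccn2 and Ankrd1 rose and Ccn5 fell, while Ccn1 and Ccn3 did not pass the test. With either gapmer against Dnm3os, injured lungs had less Ccn2 and less Ankrd1 than with the control gapmer. The mean of Ankrd1 there was also below that of uninjured controls, a difference that was not tested. Ccn4 fell with gapmer 3 and narrowly missed the threshold with gapmer 1. Ccn5, Ccn3 and Ccn1 did not pass the test with either gapmer, and Ccn1 was most like immediate early genes from array to array.

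The sequences just upstream of Ccn1 and Ankrd1 are shown because both genes are read as TEAD targets. Ankrd1 was called with bleomycin under the control gapmer and with both gapmers in injured lungs, and Ccn1 was not. Their differences had the same sign in these comparisons, and whether the genes differed from each other was not tested. The windows hold the 250 bases before the annotated start of each gene, on the minus strand at chr3:145649986-145650235 for Ccn1 and at chr19:36119845-36120094 for Ankrd1, from RefSeq on GRCm38.p6. Capitals mark the TEAD core GGAATG on either strand.
Ccn1: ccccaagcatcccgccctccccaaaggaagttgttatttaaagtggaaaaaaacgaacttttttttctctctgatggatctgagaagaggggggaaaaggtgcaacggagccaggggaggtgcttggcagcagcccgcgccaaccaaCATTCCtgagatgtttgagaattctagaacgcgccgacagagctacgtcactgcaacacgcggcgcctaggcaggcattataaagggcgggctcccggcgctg
Ankrd1: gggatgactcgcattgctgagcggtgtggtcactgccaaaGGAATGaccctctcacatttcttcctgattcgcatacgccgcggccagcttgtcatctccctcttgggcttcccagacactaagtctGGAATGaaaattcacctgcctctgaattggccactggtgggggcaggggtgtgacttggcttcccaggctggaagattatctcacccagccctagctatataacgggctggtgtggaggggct
Ccn1 has 1 such core, read as CATTCC between 103 and 98 bases upstream, and Ankrd1 has 2, between 210 and 205 and between 123 and 118 bases upstream. Of 32851 promoter windows of this length, 12.6% held at least 1 core and 1.02% held 2 or more. The SMAD core CAGAC, or GTCTG on the other strand, was in 42.2% of windows, and 2 or more were in 11.7%. Ankrd1 has 2 of these SMAD cores, 137 to 133 and 127 to 123 bases upstream, the nearer of which shares its last base with a TEAD core, and Ccn1 has none. A CArG box, the site of serum response factor, was in 1.47% of windows and in neither of these. A match of letters is a description of the sequence and does not show binding. Promoter windows of Ccn2, Ccn3, Ccn4 and Ccn5 were not analysed here.

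Values are log2 intensities as deposited by the authors, between 5.03 and 18.25 over the arrays, and a difference of 1 is a 2-fold change. Differences between groups were tested with limma in 1 fit of all arrays, and calls were made below 0.05 after Benjamini-Hochberg adjustment across the 20728 genes. The lung label was borne out by Sftpb, a surfactant gene of alveolar type 2 cells, at 16.12, and the club cell gene Scgb1a1, at 17.96, in uninjured controls. In injured lungs the targeted RNA, Dnm3os, differed from controls by -0.72 under gapmer 1 and by -0.50 under gapmer 3 (limma adjusted p = 0.000186 and 0.00293). Its level was low, 6.90 in injured controls, against 6.11 at the 25th percentile of gene means. With gapmer 3 the injured arrays reached 6.78 and overlapped the injured controls, whose lowest was 6.64. In uninjured lungs Dnm3os differed from controls by -0.45 with gapmer 1 and by -0.25 with gapmer 3. Neither passed (limma adjusted p = 0.0882 and 0.577). Among injured lungs with gapmer 1, replicate 4 had the highest Dnm3os, 6.48. In bulk lung, fewer cells of a type and less RNA per cell cannot be told apart. The array of bleomycin gapmer 1 replicate 4 was the highest of its group in Ccn1, Ccn2, Ccn4 and Ankrd1. A rule for outlying arrays flagged it for Ccn1 only. The main results keep it, and values that it moved most are given with and without it.

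Under the control gapmer 4 of the 6 members were called with bleomycin (33.8% of all genes), 3 of them higher (14.5%) and 1 lower (19.3%). In injured lungs 2 of the 6 were called with gapmer 1 (10.5% of genes), both lower (5.08%) and 0 higher (5.47%). With gapmer 3 it was 3 (13.2% of genes), all 3 lower (7.52%) and 0 higher (5.63%). Within gapmer 1, 1 member was higher with bleomycin and 0 lower, where 9.48% of genes were called, 6.35% higher and 3.13% lower. Within gapmer 3, 1 was higher and 1 lower, where 13.9% of genes were called, 7.02% higher and 6.85% lower. For the difference between responses 0 of 6 were called with gapmer 1 (7.7% of genes) and 1 with gapmer 3 (3.09%). In uninjured lungs 0 of 6 were called with either gapmer (1.11% and 0.0338% of genes). Comparisons of gapmers 1 and 3 with the control gapmer share their control arrays, and the injured control arrays also enter the comparison of bleomycin with PBS.

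**Figure D1:**
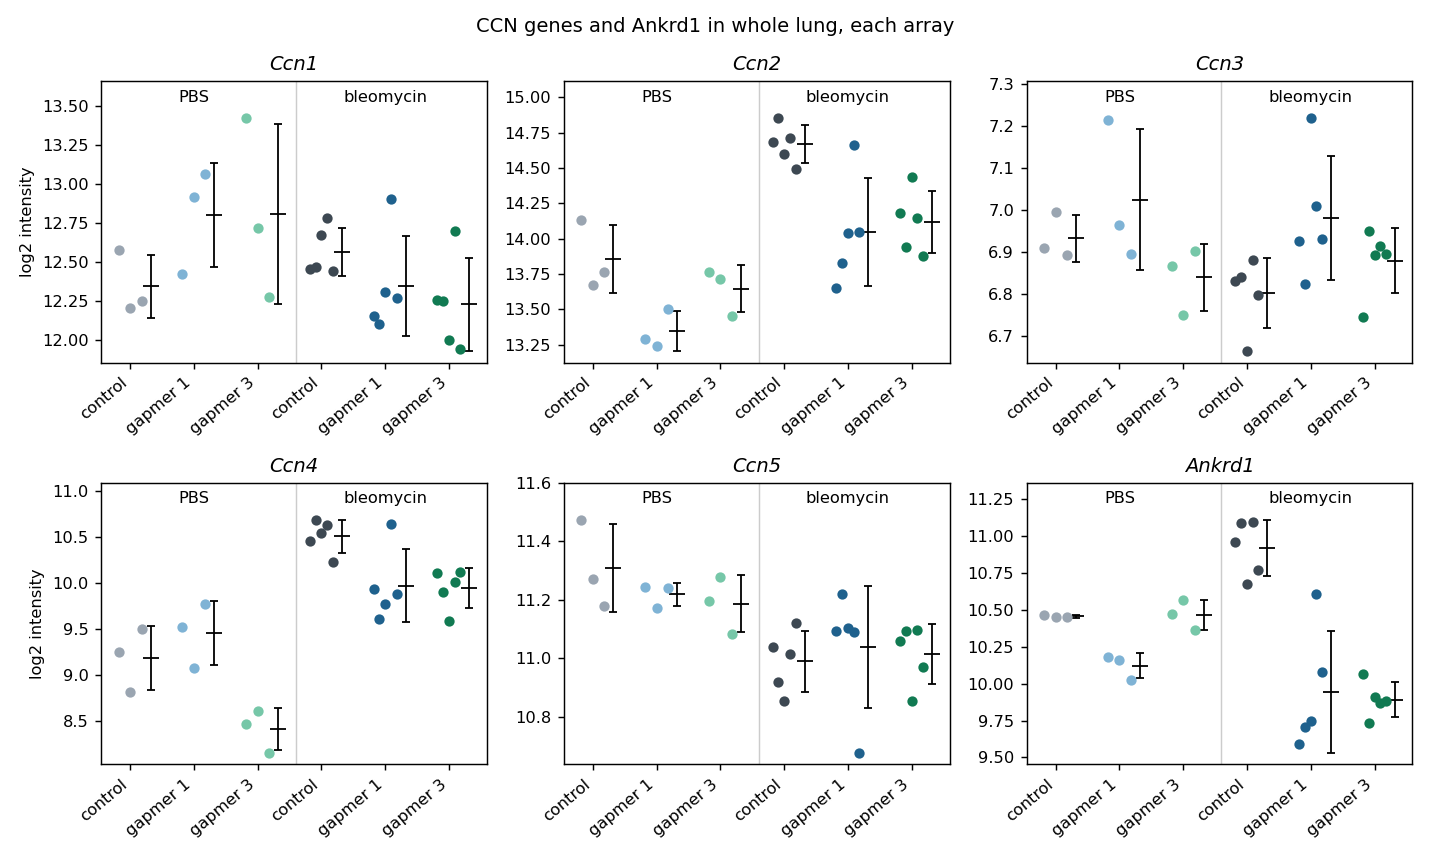
Log2 intensity of each member (y axis) in the 6 groups (x axis); points are arrays in order of sample number, bars are mean and SD (n = 3 for PBS, n = 5 for bleomycin). Ccn2, Ccn4 and Ankrd1 are highest in injured controls, Ankrd1 in injured lungs with either gapmer lies below the PBS control arrays except for 1 array, and the Ccn1 groups overlap.

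Ccn2, the connective tissue growth factor gene at chr10:24595442-24598683 (GRCm38.p6, as for the other positions), had the values 14.13, 13.67 and 13.76 in the uninjured control lungs. In injured controls it stood at 14.68, 14.85, 14.60, 14.71 and 14.49, so all 5 lay above all 3 uninjured arrays. Ccn2 rose 1.76-fold with bleomycin (log2 0.81, SE 0.17, limma adjusted p = 0.000617). With gapmer 1 the injured arrays read 13.65, 13.83, 14.04, 14.66 and 14.05, and with gapmer 3 they read 14.18, 13.94, 14.44, 14.15 and 13.88. All 5 gapmer 3 arrays lay below the lowest injured control, and so did 4 of the 5 gapmer 1 arrays, the exception being replicate 4. Ccn2 fell 1.54-fold with gapmer 1 (log2 -0.62, SE 0.15, limma adjusted p = 0.00809). It fell 1.46-fold with gapmer 3 (log2 -0.55, SE 0.15, limma adjusted p = 0.0142). Without gapmer 1 replicate 4 the first of these was -0.78. The mean in injured lungs was 0.19 above that of uninjured controls with gapmer 1, or 0.04 without replicate 4, and 0.26 above it with gapmer 3 (log2 scale).

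Ccn2 was also lower in uninjured lungs given gapmer 1, at 13.29, 13.24 and 13.51, than in any uninjured control, but this difference of -0.51 did not pass (SE 0.19, limma adjusted p = 0.161). With gapmer 3 the uninjured arrays read 13.76, 13.72 and 13.46 and overlapped the controls (difference -0.21, limma adjusted p = 0.747). Within gapmer 1 the rise with bleomycin was 0.70 (SE 0.17, limma adjusted p = 0.0100), and within gapmer 3 it was 0.47 (SE 0.17, limma adjusted p = 0.0656). The rise within gapmer 1 missed the threshold without PBS gapmer 1 replicate 2 (0.65, limma adjusted p = 0.059). That within gapmer 3 passed without bleomycin gapmer 1 replicate 1 or 4, arrays that enter only through the shared spread (limma adjusted p = 0.0484 and 0.016). The response to bleomycin itself differed from that under the control gapmer by -0.11 with gapmer 1 (95% interval -0.61 to 0.38) and by -0.34 with gapmer 3 (95% interval -0.83 to 0.15), and neither passed. Without gapmer 1 replicate 4 the first was -0.27 (SE 0.19, limma adjusted p = 0.393). The lower Ccn2 in injured lungs with a gapmer was thus not shown to be a smaller response to injury.

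Ccn4, the Wnt1-inducible gene of the family at chr15:66891369-66923201, had the largest response of the members. It stood at 9.25, 8.81 and 9.50 in uninjured controls and at 10.45, 10.68, 10.54, 10.63 and 10.22 in injured controls, with no overlap. This was a 2.50-fold rise (log2 1.32, SE 0.20, limma adjusted p = 2.44e-05). Its second, dimmer feature differed by 1.41. With gapmer 1 the injured arrays read 9.94, 9.61, 9.77, 10.64 and 9.88, and with gapmer 3 they read 10.10, 9.91, 9.58, 10.01 and 10.12. Every gapmer 3 array lay below every injured control, whereas gapmer 1 replicate 4 lay among the controls.

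Ccn4 fell 1.48-fold with gapmer 3 (log2 -0.56, SE 0.17, limma adjusted p = 0.0356). Its difference of -0.54 with gapmer 1 did not pass (SE 0.17, limma adjusted p = 0.0518), and without gapmer 1 replicate 4 it was -0.70 and passed (limma adjusted p = 0.00297). Both calls lay close to the threshold. The gapmer 3 call was lost without injured control replicate 1, 2, 3 or 4 or without injured gapmer 3 replicate 2, 3 or 4, with differences between -0.47 and -0.58 and limma adjusted p up to 0.113. The gapmer 1 difference also passed without injured control replicate 5 (-0.61, limma adjusted p = 0.0303). It passed, with its size unchanged, when an array outside the comparison was left out of the shared spread (PBS control replicate 2 or 3, PBS gapmer 1 replicate 2 or 3, or bleomycin gapmer 3 replicate 3, limma adjusted p between 0.043 and 0.0491). The second feature differed by -0.53 with gapmer 1 and by -0.52 with gapmer 3.

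Uninjured lungs showed another order for Ccn4. With gapmer 3 the arrays stood at 8.47, 8.61 and 8.16, below all 3 uninjured controls, a difference of -0.77 that did not pass (SE 0.22, limma adjusted p = 0.310). The dimmer feature differed by only -0.39 there. With gapmer 1 the uninjured arrays read 9.52, 9.08 and 9.77 and overlapped the controls. Ccn4 therefore rose 2.89-fold with bleomycin within gapmer 3 (log2 1.53, SE 0.20, limma adjusted p = 1.98e-05), and this response was not shown to differ from that under the control gapmer (difference 0.21, 95% interval -0.38 to 0.80). Within gapmer 1 its difference of 0.51 did not pass (SE 0.20, limma adjusted p = 0.121). The response with gapmer 1 was smaller than under the control gapmer by 0.81 on the log2 scale, which did not pass (SE 0.28, limma adjusted p = 0.0828), but did without gapmer 1 replicate 4 (-0.98, limma adjusted p = 0.0111).

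Ankrd1, at chr19:36111965-36119844, had the largest difference between gapmer and control among the members in injured lungs. Its uninjured control arrays were nearly identical at 10.46, 10.45 and 10.45, and injured controls stood at 10.96, 11.09, 10.68, 11.10 and 10.77. All injured controls lay above all uninjured ones. This was a rise of 1.38-fold (log2 0.46, SE 0.16, limma adjusted p = 0.0256), the least firm of the 3 rises. It missed the threshold without PBS control replicate 1, 2 or 3 or without injured control replicate 2 or 4, with differences between 0.42 and 0.47 and limma adjusted p between 0.0595 and 0.0686.

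With gapmer 1 Ankrd1 in injured lungs read 9.59, 9.70, 9.75, 10.61 and 10.08, and with gapmer 3 it read 10.07, 9.74, 9.91, 9.87 and 9.88. All 10 arrays lay below the lowest injured control, and all but gapmer 1 replicate 4 also lay below the lowest uninjured control. Ankrd1 fell 1.96-fold with gapmer 1 (log2 -0.97, SE 0.14, limma adjusted p = 9.83e-05) and 2.04-fold with gapmer 3 (log2 -1.03, SE 0.14, limma adjusted p = 3.55e-05). Only 0.49% of all genes had a lower log2 difference with gapmer 1 and 0.63% with gapmer 3. Without gapmer 1 replicate 4 the first difference was -1.14. The injured means with gapmer 1 and gapmer 3 were 0.51 and 0.56 below the uninjured control mean, and these differences were not tested.

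In uninjured lungs Ankrd1 stood at 10.18, 10.16 and 10.02 with gapmer 1, below every control array, and at 10.47, 10.56 and 10.36 with gapmer 3, around the controls. Neither difference passed (-0.33, limma adjusted p = 0.341, and 0.01, limma adjusted p = 0.994). Under gapmer 3 Ankrd1 thus fell with bleomycin, by 0.57 (SE 0.16, limma adjusted p = 0.0154), where under the control gapmer it rose. That fall missed the threshold without PBS gapmer 3 replicate 2 (-0.53, limma adjusted p = 0.079). The test of the difference between the responses passed for gapmer 3 (-1.04, 95% interval -1.50 to -0.58, limma adjusted p = 0.0148). For gapmer 1 it was -0.64 and did not pass (95% interval -1.10 to -0.18, limma adjusted p = 0.0777), but it passed without gapmer 1 replicate 4 (-0.81, limma adjusted p = 0.00238).

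**Figure D2:**
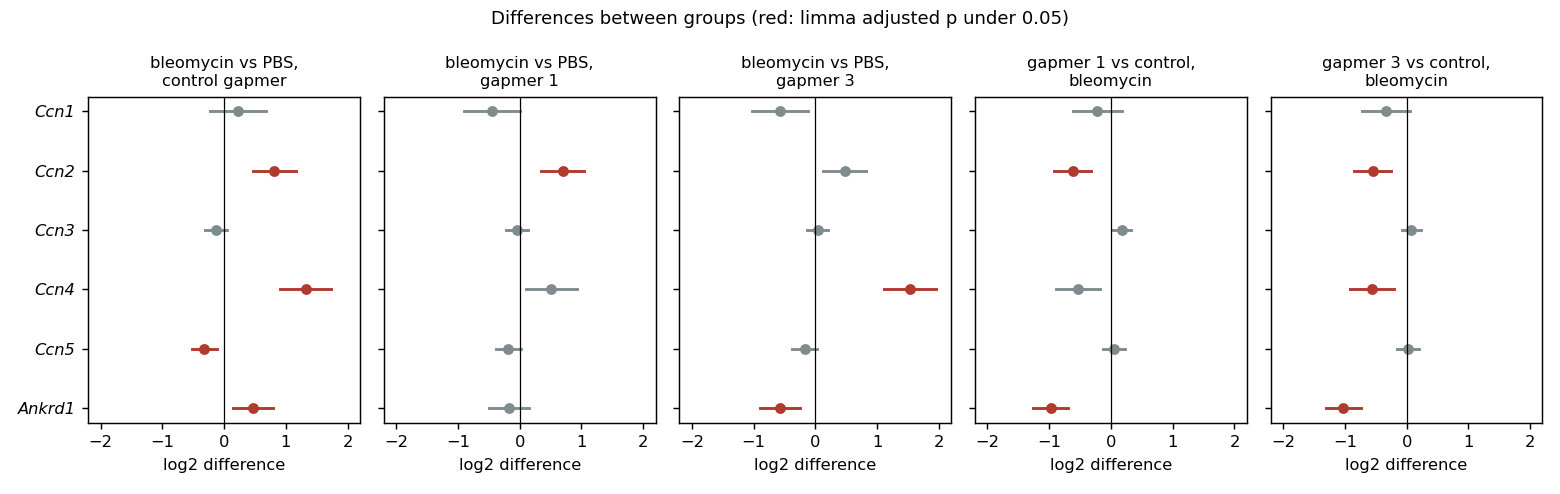
Log2 differences of the members (rows) in 5 comparisons, with 95% intervals from the limma fit; red marks an adjusted p under 0.05 and grey the others. Ankrd1 lies at 0.46 with bleomycin under the control gapmer and at -0.97 and -1.03 with gapmers 1 and 3 in injured lungs.

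Ankrd1 is abundant in heart muscle, and whole mouse lung contains heart-type muscle around its veins, so cardiac markers were read beside it. The cardiac list moved the other way with bleomycin: of 13 measured markers 5 were lower and 0 higher, with a median difference of -0.54 against -0.02 over all genes. The atrial myosin light chain gene Myl7 fell by 1.21 (SE 0.21, limma adjusted p = 0.000123) and the cardiac myosin gene Myh6 by 0.98 (SE 0.20, limma adjusted p = 0.000659). Between gapmers in injured lungs 0 of the 13 passed in either comparison, with medians of 0.24 for gapmer 1 and 0.15 for gapmer 3. The mean over the list lay between 11.31 and 11.54 in uninjured controls, between 10.73 and 11.08 in injured controls, between 10.88 and 11.22 with gapmer 1 and between 10.62 and 11.43 with gapmer 3 in injured lungs. No cardiac marker was absent: Myh6 stood at 15.30 in uninjured and 14.32 in injured controls. The related genes Ankrd2 and Ankrd23, with 6 other genes of the titin-linked muscle cytoskeleton, gave 0 calls of 8 in these 3 comparisons, with a median of -1.12 for bleomycin and of 0.56 and 0.62 for gapmers 1 and 3. Of 12 skeletal muscle markers 3 fell with bleomycin (median -1.28), and 1 rose with gapmer 1 and 0 with gapmer 3 (medians 0.73 and 0.33). These markers varied strongly between arrays of some groups, from a list mean of 8.31 to 12.65 among injured lungs with gapmer 3, where Ankrd1 ran from 9.74 to 10.07. The median of each of these 3 muscle lists differed in the opposite direction to Ankrd1 in all 3 comparisons. Few genes of these lists were called between gapmers. Over all genes 19.3% fell with bleomycin, and 5.47% and 5.63% rose with gapmers 1 and 3 in injured lungs. The part of muscle in the Ankrd1 level was not tested.

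Ccn1, at chr3:145646971-145649985, is like Ccn2 and Ankrd1 a textbook YAP target, and it varied within groups more than between them. It stood at 12.57, 12.21 and 12.25 in uninjured controls and at 12.45, 12.47, 12.68, 12.79 and 12.44 in injured controls, which overlapped (difference 0.22, 95% interval -0.23 to 0.68, limma adjusted p = 0.483). In injured lungs its arrays ran from 12.10 to 12.90 with gapmer 1 and from 11.94 to 12.70 with gapmer 3. The differences from injured controls were -0.22 (95% interval -0.61 to 0.17, limma adjusted p = 0.552) and -0.34 (95% interval -0.73 to 0.06, limma adjusted p = 0.283). Without gapmer 1 replicate 4, the highest array of its group, the first of these was -0.36 (SE 0.18, limma adjusted p = 0.225). In uninjured lungs the values with gapmer 1 were 12.42, 12.92 and 13.06 and with gapmer 3 were 13.42, 12.72 and 12.28, differences of 0.46 in each that did not pass (limma adjusted p = 0.349 and 0.557). Every neighbouring pair in the order of the 6 group means overlapped. The response of Ccn1 to bleomycin differed from that under the control gapmer by -0.68 with gapmer 1 (95% interval -1.32 to -0.04, limma adjusted p = 0.186). With gapmer 3 it differed by -0.80 (95% interval -1.44 to -0.16, limma adjusted p = 0.158). Neither passed after adjustment, although the intervals, which are not adjusted, exclude no difference. The difference within gapmer 3 between bleomycin and PBS was -0.58 (limma adjusted p = 0.087). It passed without PBS gapmer 3 replicate 3 (-0.84, limma adjusted p = 0.0201) or without bleomycin gapmer 3 replicate 4 (-0.69, limma adjusted p = 0.0407). With each array left out in turn it ran from -0.84 to -0.27. Over all alternatives its limma adjusted p reached 0.497.

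Ccn5, the member without the cystine knot, lies at chr2:163820752-163833146 and moved opposite to Ccn2 with injury and did not follow the gapmers. Uninjured controls read 11.47, 11.27 and 11.18 and injured controls 11.04, 10.92, 10.85, 11.01 and 11.12. Ccn5 fell by 0.32 (SE 0.10, limma adjusted p = 0.0149), with no overlap between the groups. Without PBS control replicate 1 the difference was -0.24 and did not pass (limma adjusted p = 0.112). In injured lungs Ccn5 differed from controls by 0.05 with gapmer 1 (95% interval -0.13 to 0.23) and by 0.03 with gapmer 3 (95% interval -0.15 to 0.20). Those intervals exclude a fall as large as that of Ccn2. Within gapmers 1 and 3 the differences with bleomycin, -0.18 and -0.17, did not pass (limma adjusted p = 0.295 and 0.297).

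Ccn3, formerly Nov, at chr15:54745910-54753762, was dim, at the 34.7th percentile of gene means. Its arrays ran from 6.66 to 7.22 over all 24 samples, and no comparison passed. The difference with bleomycin was -0.13 (95% interval -0.30 to 0.04), with gapmer 1 in injured lungs 0.18 (95% interval 0.03 to 0.33, limma adjusted p = 0.120) and with gapmer 3 0.08 (95% interval -0.07 to 0.23). The family's remaining gene Ccn6 was dimmer still. It fell by 0.30 with bleomycin (limma adjusted p = 0.0124), but its mean over all arrays was 5.90, at the 20.3rd percentile of genes, where intensities lie close to the lowest on the array.

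Gapmers 1 and 3 were also compared directly in injured lungs, 1 comparison with 5 arrays on each side. None of the members differed in limma: the difference of gapmer 3 from gapmer 1 was -0.05 for Ankrd1 (95% interval -0.34 to 0.23), 0.07 for Ccn2 (95% interval -0.23 to 0.37), -0.03 for Ccn4 (95% interval -0.39 to 0.34) and -0.12 for Ccn1 (95% interval -0.51 to 0.28). Limma called 0 of 20728 genes (0% of genes) in that comparison, with 838 at an unadjusted p under 0.05. Without gapmer 1 replicate 4 the differences were 0.11 for Ankrd1, 0.23 for Ccn2, 0.14 for Ccn4 and 0.02 for Ccn1, with the sign turned for Ankrd1, Ccn4 and Ccn1 and with limma adjusted p between 0.907 and 0.994. These intervals and values do not show that the gapmers act alike.

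The genes most like each member over the 24 arrays were named by Pearson correlation of log2 values, as a description, since the arrays share groups. Tests of these genes follow in part from that choice and are no separate support. For Ccn1 these were Egr1 (r = 0.86), Btg2 (r = 0.79) and Fos (r = 0.75), all immediate early or early response genes. For deviations from the group means r was 0.85, 0.81 and 0.78, so the likeness was also present within groups. Egr1, like Ccn1, did not pass in the injury comparison (0.05, limma adjusted p = 0.926) or with gapmer 1 (-0.27, limma adjusted p = 0.581) or gapmer 3 (-0.39, limma adjusted p = 0.360) in injured lungs. Of 18 immediate early genes 5 rose and 3 fell with bleomycin under the control gapmer (14.5% and 19.3% of all genes), among them Egr2 at 1.27 and Myc at 1.20. Within gapmer 1, 2 rose and 6 fell with bleomycin (median -0.31 against 0.01 over all genes), and within gapmer 3, 2 rose and 8 fell (median -0.39 against -0.01), beside differences of -0.46 and -0.58 in Ccn1 that did not pass. Over all genes 6.35% rose and 3.13% fell within gapmer 1, and 7.02% rose and 6.85% fell within gapmer 3. Egr1 fell with bleomycin within both, with differences of -1.30 for gapmer 1 (SE 0.29, limma adjusted p = 0.00539) and -0.96 for gapmer 3 (SE 0.29, limma adjusted p = 0.0272). Its uninjured level differed from controls by 1.08 with gapmer 1 and 0.62 with gapmer 3, which did not pass (limma adjusted p = 0.0844 and 0.544). The list mean in uninjured lungs was 10.16 with gapmer 1 and 10.15 with gapmer 3, against 9.93 in controls. Its uninjured arrays read 10.55, 10.01 and 9.90 with gapmer 3 and 10.07, 9.84 and 9.87 in controls. In injured lungs the list mean was 9.89 with gapmer 1 and 9.85 with gapmer 3, against 10.02 in controls. Within each gapmer the list thus ran from an uninjured mean above controls to an injured mean below them. The list means were not tested.

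The nearest genes to the other members were of other kinds. For Ccn4 they were the mesenchymal homeobox gene Prrx2 (r = 0.95), Tmem132a (r = 0.94) and Cpxm1 (r = 0.94), with r = 0.87, 0.86 and 0.73 for deviations from group means. Prrx2 rose by 1.78 with bleomycin (limma adjusted p = 2.52e-07) and fell by 0.75 with gapmer 1 (limma adjusted p = 0.00444) and by 0.95 with gapmer 3 (limma adjusted p = 0.000406) in injured lungs. For Ccn2 they were Arid5a (r = 0.92), the death receptor gene Tnfrsf10b (r = 0.91) and the stress-induced gene Ddit4 (r = 0.90), with r = 0.69, 0.70 and 0.54 for deviations. For Ankrd1 they were Bmper (r = 0.90), which encodes a secreted BMP regulator, Mefv (r = 0.89) and the leukotriene receptor gene Ltb4r1 (r = 0.86), with r = 0.62, 0.65 and 0.56 for deviations. Ccn5 was most like the formin gene Fhod1 (r = 0.91, and 0.91 for deviations), and Ccn3 most like the lipid metabolism gene Gpd1 (r = 0.72).

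Among the members themselves, deviations of Ccn2 and Ankrd1 from their group means correlated at r = 0.75 over 24 arrays. Without bleomycin gapmer 1 replicate 4 this r was 0.50. For Ccn2 and Ccn4 r was 0.52 with that array and 0.19 without it, and for Ccn4 and Ankrd1 it was 0.58 and 0.21, so these likenesses rest largely on 1 array. The likeness of Ccn1 and Egr1 was 0.84 without it. For Ccn4 with Prrx2, Tmem132a and Cpxm1 it was 0.78, 0.77 and 0.60 without that array. For the nearest genes of Ccn2 and Ankrd1 it was not calculated without that array.

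**Figure D3:**
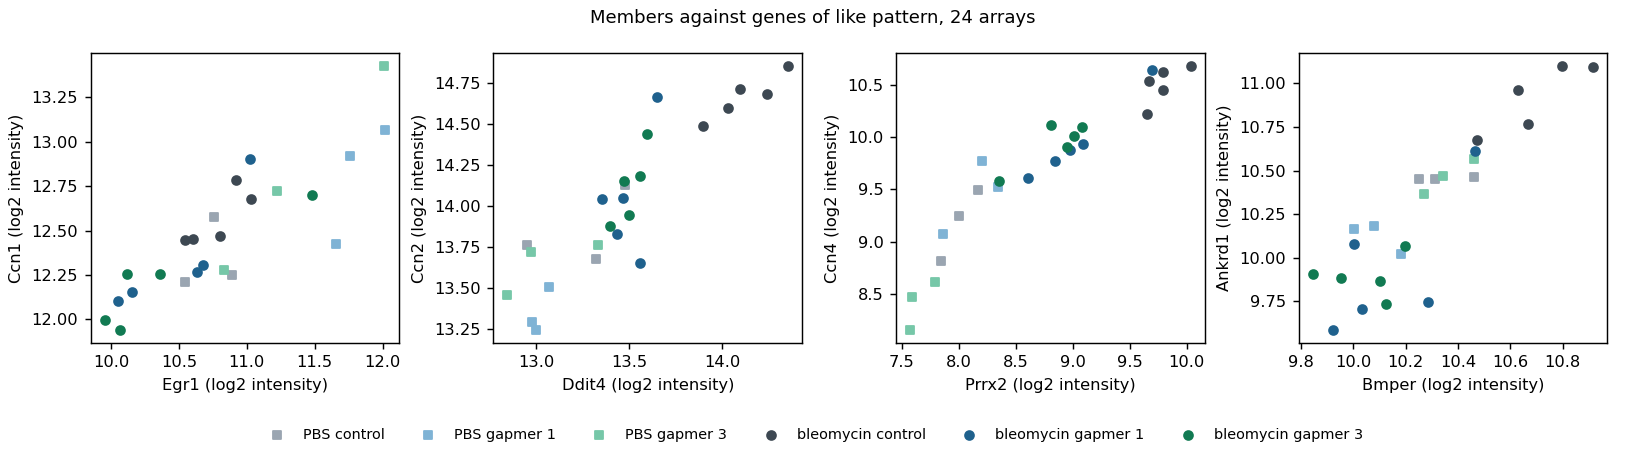
Log2 intensity of 4 members (y axes) against a gene of like pattern (x axes) in 24 arrays; squares are PBS and circles bleomycin, coloured by gapmer. Ccn1 follows Egr1 within groups (r = 0.85 for deviations from group means), whereas Ccn2, Ccn4 and Ankrd1 are highest in injured controls together with Ddit4, Prrx2 and Bmper. The genes on the x axes were chosen by their correlation with the members over these same arrays.

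The pathways around the members were read from fixed lists, and whether any of them acted on the members was not tested. Over all genes, 14.5% rose and 19.3% fell with bleomycin under the control gapmer. In injured lungs 5.47% rose and 5.08% fell with gapmer 1, and 5.63% rose and 7.52% fell with gapmer 3. Of 19 further genes of a YAP and TAZ target signature, 7 rose and 8 fell with bleomycin (median -0.13 against -0.02 over all genes), so calls in this list went in both directions. Ccdc80 rose by 1.25 (limma adjusted p = 8.93e-06) and Fjx1 by 0.91 (limma adjusted p = 3.55e-06), while Igfbp3 fell by 1.80 (limma adjusted p = 1.81e-07) and Foxf2 by 0.95 (limma adjusted p = 5.71e-05). In injured lungs 1 rose and 1 fell with gapmer 1, and 1 rose and 2 fell with gapmer 3. Fjx1 fell with both, by 0.38 and 0.36, and the Hippo kinase gene Lats2, itself a YAP target, rose with both, by 0.27 and 0.36. The medians of the list, -0.01 and 0.02, lay near those of all genes at 0.02 and 0.01.

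Of 24 genes for Hippo regulators, YAP, TAZ and TEAD factors, 10 fell, 1 rose and 13 did not pass with bleomycin, with Yap1 lower by 0.61 (SE 0.10, limma adjusted p = 3.72e-05). In injured lungs 2 rose with gapmer 1 (5.47% of all genes), and 4 rose and 1 fell with gapmer 3 (5.63% and 7.52% of all genes). Wwtr1, which encodes TAZ, rose with both, by 0.26 (limma adjusted p = 0.00382) and 0.29 (limma adjusted p = 0.00106). Tead4 rose by 0.29 with gapmer 1 and Tead1 by 0.35 with gapmer 3.

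Lists of TGF-beta and of serum response factor were read beside Ccn2. Of 19 TGF-beta ligands, receptors and SMAD targets 10 rose and 2 fell with bleomycin (median 0.34), including the activin gene Inhba at 2.24 and Fn1 at 1.55. With gapmer 1, 5 fell and 0 rose (median -0.11), and with gapmer 3, 6 fell and 1 rose (median -0.10), with Inhba at -1.20 and -1.32. Of 20 actin-linked genes of serum response factor and its cofactors 7 rose and 2 fell with bleomycin (median 0.19). With gapmer 1, 4 fell and 1 rose, and with gapmer 3, 6 fell and 1 rose, among them Acta2, the smooth muscle actin gene, at -0.64 and -0.79 and Fhl2 at -0.57 and -0.59. In the Wnt list, read beside Ccn4, 8 of 19 rose and 7 fell with bleomycin, and 3 rose and 5 fell with each gapmer. Wnt10a, a Wnt ligand gene, rose by 3.11 with bleomycin and fell by 0.94 and 1.32 with gapmers 1 and 3, and Lef1, a nuclear effector of the pathway, fell by 0.73 and 0.79 with them.

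Of 17 measured genes for receptors and co-receptors of CCN proteins, 9 rose, 0 fell and 8 did not pass with bleomycin (median 0.23), with the leukocyte integrin gene Itgb2 at 1.26, the epithelial integrin gene Itgb6 at 0.78 and the heparan sulfate proteoglycan gene Gpc1 at 0.75. In injured lungs 0 rose and 1 fell with each gapmer, and the gene was Gpc1 in both, at -0.53 (limma adjusted p = 0.00242) and -0.52 (limma adjusted p = 0.00204). Over all genes 5.08% fell with gapmer 1 and 7.52% with gapmer 3.

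**Figure D4:**
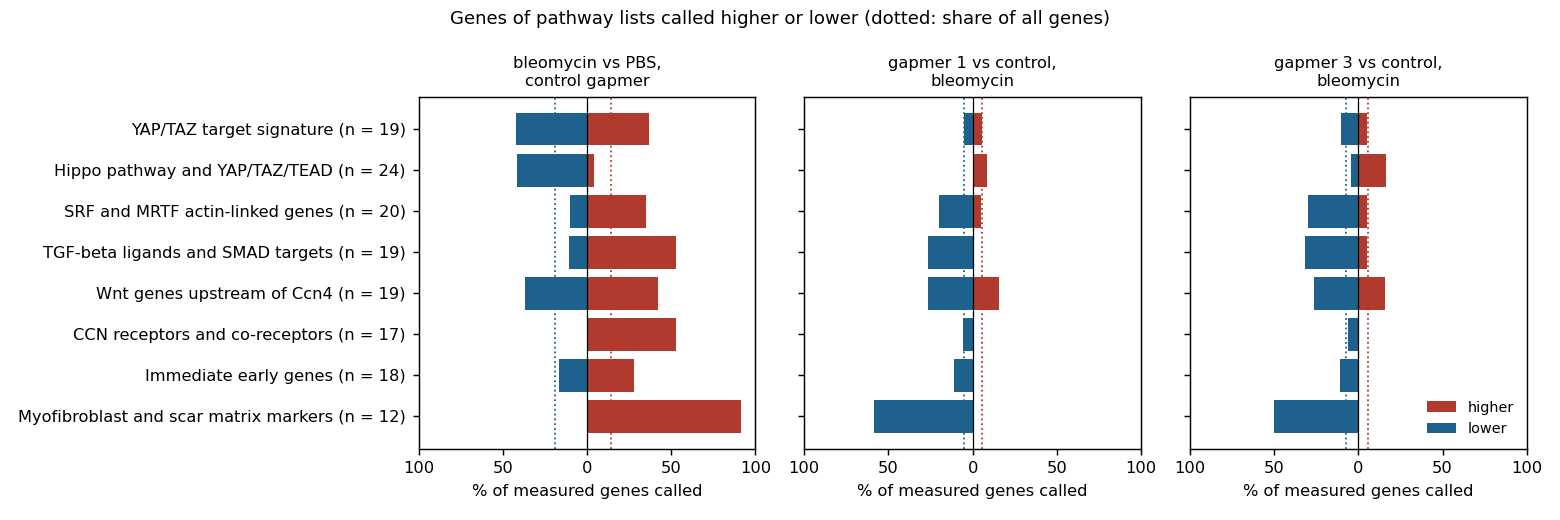
Share of measured genes of 8 fixed lists called higher (red, to the right) or lower (blue, to the left) in 3 comparisons, in percent; dotted lines give the share over all genes. The YAP and TAZ signature has 7 of 19 genes higher and 8 of 19 lower with bleomycin, and the scar matrix list 11 of 12 higher.

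Cell type markers were read in the same comparisons. The shares of all genes to set beside these counts were 14.5% higher and 19.3% lower with bleomycin. In injured lungs they were 5.47% higher and 5.08% lower with gapmer 1, and 5.63% higher and 7.52% lower with gapmer 3. Of 12 myofibroblast and scar matrix markers 11 rose and 0 fell with bleomycin (median 1.68), and 7 and 6 fell with gapmers 1 and 3 in injured lungs. The mean over this list was 11.35 in bleomycin gapmer 1 replicate 4, the array with high Ccn2, Ccn4 and Ankrd1, against 10.44 to 10.94 in the other 4 arrays of that group and 11.17 to 11.57 in injured controls. Of 10 alveolar type 1 cell markers 8 fell and 2 rose with bleomycin, and 7 rose with each gapmer. Of 11 endothelial markers 10 fell with bleomycin, and 2 and 6 rose with gapmers 1 and 3. Of 8 mesothelial markers 6 fell and 2 rose with bleomycin, and 4 and 1 rose with the gapmers. Among 12 resident fibroblast markers 5 fell and 1 rose with bleomycin, 2 rose and 1 fell with gapmer 1, and 3 rose and 1 fell with gapmer 3. Of 8 lung epithelial markers 3 fell with bleomycin and 5 rose with each gapmer. Of 10 cartilage markers, read because cartilage is rich in Ccn2, 2 rose with bleomycin and 0 passed with either gapmer. The part of these cell types in the levels of the members was not tested.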

How the data were processed

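Total RNA was labelled with Cy3 and measured on one-colour Agilent arrays, per the labels. The array medians of the deposited log2 intensities were nearly equal, between 6.485 and 6.495. Other quantiles were not compared, so the medians alone do not show how the arrays had been scaled. The submitters' processing notes name limma, with no version, and how background and filters were handled was not stated in the sources used here. Of 62976 features 31465 carried 1 gene symbol, 31511 none and 0 several. Symbols were updated with a RefSeq table for GRCm38.p6, by accession (1957 symbols) or synonym (263), and the feature with the highest mean was kept for the 6176 genes with more than 1. The 20728 genes were fitted with limma 3.58.1 in R 4.3.3 (6 group means, 18 residual and 3.26 prior degrees of freedom, two-sided, no filter). Tables and plots used Python 3.11.15, pandas 2.3.3, NumPy 2.4.6 and matplotlib 3.10.9. The fit was tested on simulated data. Precision is limited by how few arrays each group has.

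The members and lists were chosen with earlier results of these data known. Named genes are the members, Ccn6, Dnm3os, up to 4 called genes with the largest change per list and comparison, and the 3 genes best correlated with each member among those above the median level. Sftpb, Scgb1a1, Ankrd2 and Ankrd23 are named as markers, and genes like a member are also given with their tests. Alternatives covered scaling, a filter on dim genes, the choice of feature, the variance model, array weights, the arrays in the fit, the RNA integrity number, the sample number as a block and each array left out in turn.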

Additional observations from a re-analysis of the deposited data

Results flagged for a closer look

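Of 18 sets of 5 arrays (6 members in 3 bleomycin groups), 3 had an array far from the other 4, where chance alone gives about 1 in 20. Ccn1 stood at 12.90 in bleomycin gapmer 1 replicate 4, above the next array by 0.743 of the group's range. Ccn3 stood at 6.75 in bleomycin gapmer 3 replicate 1, low by 0.725 of the range. Ccn5 stood at 10.68 in bleomycin gapmer 1 replicate 5, low by 0.761 of the range.

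The response of Ankrd1 to bleomycin differed between gapmer 3 and the control gapmer by -1.04 in the test of the difference itself (limma adjusted p = 0.0148).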

How the results depend on the processing

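Over 35 alternatives for each of 6 members in 10 comparisons, 2057 of 2100 values kept their side of the threshold, 18 lost the call, 25 gained it and 0 changed sign while called. The falls of Ankrd1 and Ccn2 with both gapmers in injured lungs and the rises of Ccn2 and Ccn4 under the control gapmer passed in all 35. The cause of the other changes was not tested.

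The count of genes called moved by over 1.5 times as follows. With array weights it was 4479 (bleomycin, gapmer 3), 4231 and 5121 (gapmers 1 and 3, injured), 732 (gapmer 1, PBS), and 3251 and 1763 (difference in response, gapmers 1 and 3). With every feature tested it was 2975 (bleomycin, gapmer 1), 3291 and 4116 (gapmers 1 and 3, injured) and 1045 (difference in response, gapmer 3). With the RNA integrity number as covariate it was 898 (bleomycin, gapmer 1), 424 and 4 (gapmers 1 and 3, PBS) and 287 (difference in response, gapmer 3). With only the compared groups, and so fewer arrays, it was 485 (bleomycin, gapmer 1), 1278 (gapmer 1, injured), and 68 and 1 (gapmers 1 and 3, PBS). The main counts were 1966, 2875, 2186, 2726, 230, 7, 1597 and 641 for bleomycin in gapmers 1 and 3, gapmers 1 and 3 in injured and in PBS lungs, and the differences in response.

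Of the members, 0 were called with bleomycin in gapmer 1 when only the compared groups were fitted (Ccn2, limma adjusted p = 0.0988). In the difference in response with gapmer 1, 1 was called with the mean of all features (Ccn4, -0.86) and 2 with array weights (Ccn4, -0.93, and Ankrd1, -0.80). The rise of Ankrd1 with bleomycin lost its call with the RNA integrity number as covariate (0.39, limma adjusted p = 0.0775). The Ccn4 difference with gapmer 1 in injured lungs passed with arrays centred on their medians (limma adjusted p = 0.0485) and with quantile normalization over named genes (0.047). It also passed with dim genes left out (limma adjusted p = 0.0409), the mean of all features (0.0345) and array weights (-0.69, 0.00301). Ccn2 with bleomycin within gapmer 3 passed with array weights (limma adjusted p = 0.0113) and with only the compared groups (0.0447).

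With the replicate block the count was 423 for gapmer 1 in PBS lungs and 1115 for the difference in response with gapmer 3. The rise of Ankrd1 with bleomycin was then 0.38 (limma adjusted p = 0.0574), while Ccn4 with gapmer 1 in injured lungs passed (-0.54, limma adjusted p = 0.044), as did Ccn1 with bleomycin in gapmer 3 (-0.66, limma adjusted p = 0.0356). No other member's call changed. The sample numbers were not taken as pairs: deviations of same-numbered arrays correlated between -0.41 and 0.42, and 8 of 24 arrays correlated best with their own number.

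Leaving out 1 array gave 5695 to 7339 genes and 2 to 4 members with bleomycin under the control gapmer, 1068 to 2273 and 0 to 1 within gapmer 1, and 1986 to 3160 and 1 to 3 within gapmer 3. It gave 1209 to 3092 and 2 to 3 for gapmer 1 and 1775 to 3065 and 2 to 3 for gapmer 3 in injured lungs. In PBS lungs it gave 10 to 684 genes for gapmer 1 and 2 to 30 for gapmer 3, with 0 members. For the differences in response it gave 802 to 2574 genes and 0 to 2 members with gapmer 1, and 246 to 1161 genes and 1 member with gapmer 3. Signal near the lowest intensities limits what can be read from Ccn3 and Ccn6.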
